A study of Mus musculus with 12 samples.

Results

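The comparison asked whether loss of Smchd1 altered the transcriptional response of mouse embryonic stem (ES) cells between day 1 and day 5 of differentiation toward neuromesodermal progenitors (NMPs). It is the interaction contrast, the day 5 minus day 1 difference in Smchd1 del/del cells minus the same difference in Smchd1 fl/fl cells. It used 8 of the 12 libraries of the series, 2 in each of the 4 groups Smchd1 del/del day 1, Smchd1 fl/fl day 1, Smchd1 del/del day 5 and Smchd1 fl/fl day 5. A positive interaction means that a gene rose more, or fell less, in del/del cells. Of 25965 genes in the table, 13377 were tested. All cells were male and C57BL/6. They came from ES lines numbered 1 and 3, each derived from 1 blastocyst in 2i and LIF. One portion of each line received a Cre and puromycin retrovirus (MSCV-Cre-puro) and was selected with puromycin to give del/del cells, and the other stayed untransduced as fl/fl. Deletion therefore cannot be told apart from transduction and selection. Both were weaned in serum and LIF, after which LIF was withdrawn and Fgf2 added, and a Gsk3 inhibitor followed 2 days later. The sample labels say day 1 where the protocol has day 0. Day 5 lies within the period of Gsk3 inhibition, so the contrast covers Fgf2 exposure without LIF as well as Wnt pathway activation.

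Gsk3 normally marks beta-catenin for destruction. When Gsk3 is inhibited, beta-catenin accumulates, enters the nucleus and acts with Tcf and Lef proteins on Wnt target genes, including feedback inhibitors such as Axin2 and Notum. In cells that have left pluripotency under Fgf, this signal induces the posterior regulators T (brachyury), Cdx1, Cdx2 and Cdx4 that mark NMPs, the cells that supply spinal cord and paraxial mesoderm. Hox genes are then switched on in the order of their position along each cluster. Smchd1 is a noncanonical structural maintenance of chromosomes protein, known for its part in silencing the inactive X, imprinted clusters, clustered protocadherins and Hox genes.

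Promoters of 4 genes induced over this interval are shown because they carry letters that Tcf and Lef proteins recognise: Msgn1, a presomitic mesoderm regulator; T, the streak and NMP regulator; Sp5, a transcriptional effector of Wnt signalling; and Dkk1, a secreted Wnt inhibitor. Each is the 250 bases before the RefSeq start in GRCm38.p6, which is the assembly that mm10 names. Capitals mark CTTTGAA or CTTTGAT on either strand. The windows are chr12:11208949-11209198 on the minus strand, chr17:8434173-8434422 on the plus strand, chr2:70474673-70474922 on the plus strand and chr19:30549497-30549746 on the minus strand.
Msgn1: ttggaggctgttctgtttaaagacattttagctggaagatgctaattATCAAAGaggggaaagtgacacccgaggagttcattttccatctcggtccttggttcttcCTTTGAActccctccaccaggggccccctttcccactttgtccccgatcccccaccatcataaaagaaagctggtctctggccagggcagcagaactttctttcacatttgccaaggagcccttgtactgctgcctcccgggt
T: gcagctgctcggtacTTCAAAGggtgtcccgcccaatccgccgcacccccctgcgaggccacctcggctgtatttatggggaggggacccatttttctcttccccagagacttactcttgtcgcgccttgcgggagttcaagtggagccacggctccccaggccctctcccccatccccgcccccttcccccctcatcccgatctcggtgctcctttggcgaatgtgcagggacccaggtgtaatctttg
Sp5: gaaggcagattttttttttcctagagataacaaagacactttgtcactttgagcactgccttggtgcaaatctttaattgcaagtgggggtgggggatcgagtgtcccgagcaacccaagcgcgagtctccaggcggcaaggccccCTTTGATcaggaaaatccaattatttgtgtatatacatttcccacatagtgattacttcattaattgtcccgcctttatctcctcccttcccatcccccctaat
Dkk1: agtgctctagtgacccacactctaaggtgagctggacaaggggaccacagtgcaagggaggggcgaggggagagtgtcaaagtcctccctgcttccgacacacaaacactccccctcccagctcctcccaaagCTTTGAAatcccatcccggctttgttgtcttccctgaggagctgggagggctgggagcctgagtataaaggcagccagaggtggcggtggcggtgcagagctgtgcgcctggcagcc
These letters were present in such a window of 582 of 9196 tested genes that have one (6.33%). The Wnt targets and feedback genes had them in 3 of 11 (Dkk1, Sp5 and Tnfrsf19), the NMP and streak genes in 3 of 15 (Sp5, Sp8 and T), paraxial mesoderm genes in 1 of 12 and Hox genes in 1 of 17. Among the 24 genes named below for the smallest interaction p, 13 had a window and none of those held the letters. A match is a description of the sequence only.

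Gene reads numbered 6416672 to 8670941 per library at day 1 and 3993693 to 7599522 at day 5. Reads in genes made up 24.7 to 27.8% of the authors' denominator at day 1. At day 5 the share was 14.3 to 15.3% in 3 libraries and 24.0% in the fl/fl library of line 3, which was also the deepest of the 4. Levels are therefore given as log2 RPM, reads scaled to the authors' library total, after each library was rescaled so that the median tested gene was level across libraries. On the deposited scale the median gene had an interaction of -0.55, against -0.035 after rescaling.

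Smchd1 itself (chr17:71344489-71475343) separated the genotypes on both days. At day 1 the level was 2.39 and 2.65 in del/del lines 1 and 3 and 5.29 and 5.43 in fl/fl. At day 5 it was 2.17 and 2.45 in del/del and 4.16 and 4.65 in fl/fl. Its genotype difference was -2.84 at day 1 (SE 0.20, limma, Benjamini-Hochberg adjusted p 0.00372) and -2.09 at day 5 (SE 0.20, adjusted p 0.0469). The day 5 call was lost with voom weights (adjusted p 0.118) and in 6 of the 8 fits that left out 1 library, and the day 1 call whenever a day 1 library was left out. Transcript remained in the deleted cells, with 197 and 271 reads at day 1 and 102 and 104 at day 5. A lower level in these bulk samples can come from fewer cells expressing a gene or from less RNA per cell, which cannot be told apart. Smchd1 was the only gene called between genotypes at either day, 1 of 13377 (0.00748%) lower at each and 0 higher.

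**Figure D1:**
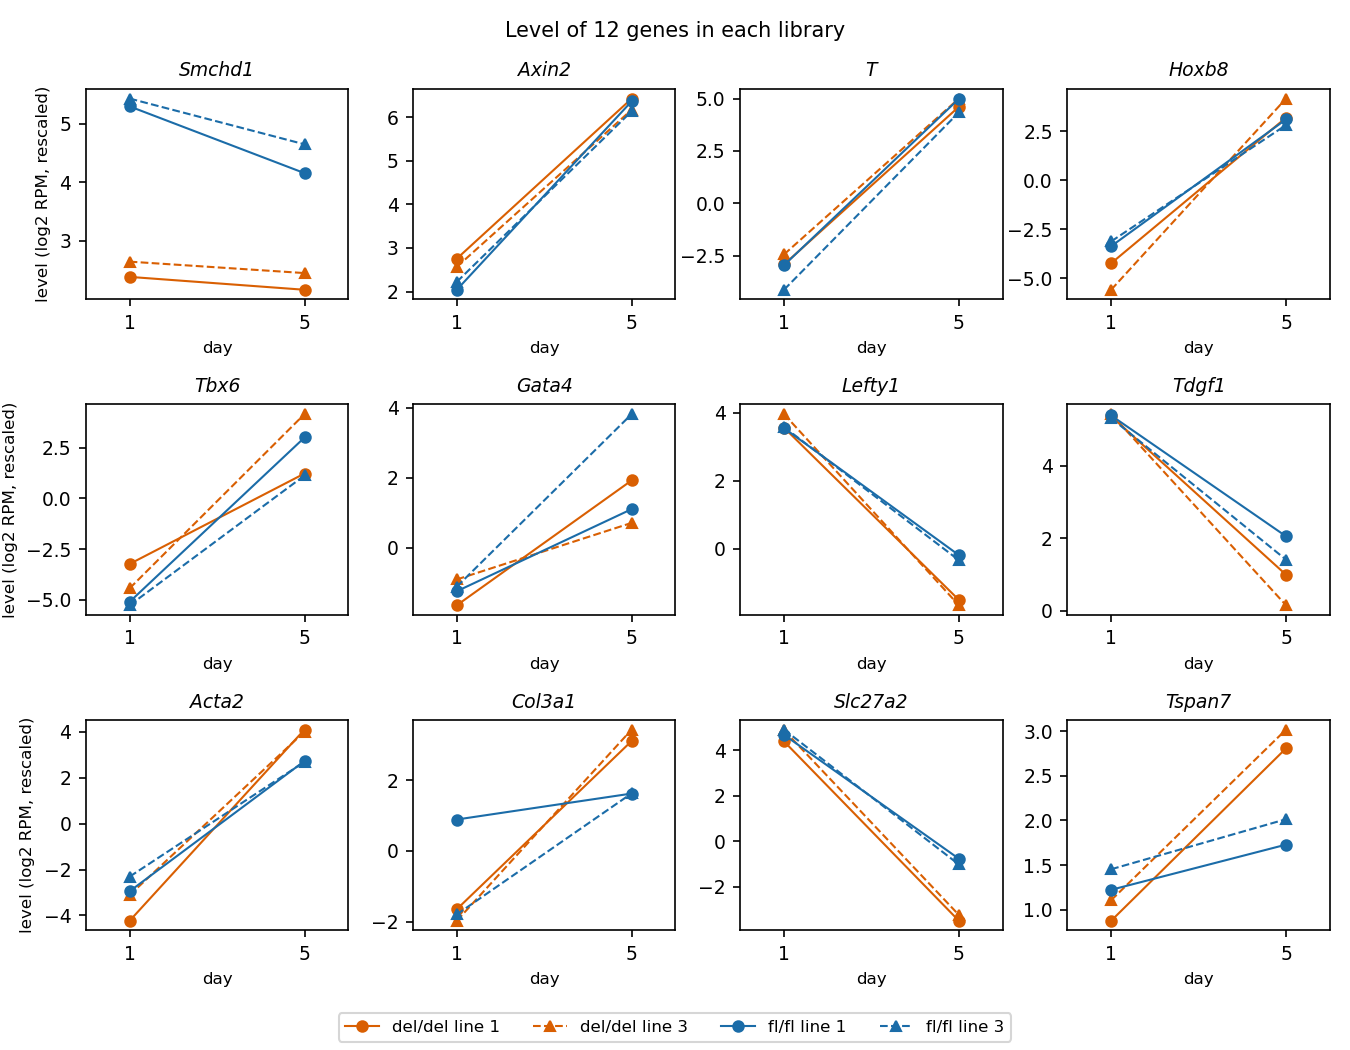
Level (log2 RPM, rescaled; vertical axes differ) of 12 genes at day 1 and day 5, with each line joining the libraries of 1 ES line and 1 genotype. Smchd1 separates by genotype at both days, Axin2 and T rise in all 4 cultures, Tbx6 and Gata4 order the lines oppositely in the 2 genotypes, and Lefty1, Tdgf1, Acta2, Col3a1, Slc27a2 and Tspan7 separate by genotype at day 5 in both lines.

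Between day 1 and day 5 both genotypes changed a large part of their transcriptome. Averaged over genotypes, 4013 genes rose (30%) and 3843 fell (28.7%) at adjusted p under 0.05. Among the genes with the largest average rise were the posterior genes Hoxb6, Hoxd9, T and Sp5 and the Wnt inhibitor Dkk4. The largest falls included the fatty acid transporter Slc27a2 and Enpp3, Kirrel2, Spna1 and Cyp2b23. Separately, 3134 genes rose in del/del (23.4%) and 3331 in fl/fl (24.9%), while 2940 (22%) and 2776 (20.8%) fell.

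No gene passed the test of the interaction. At adjusted p under 0.05, 0 of 13377 genes were higher (0%) and 0 were lower (0%), and the smallest adjusted p was 0.825 (limma with Benjamini-Hochberg adjustment). At an unadjusted p under 0.05 there were 421 genes (3.15%), 143 of them higher in their del/del response (1.07%) and 278 lower (2.08%). A share of 0.05 would be expected to pass this threshold with no interaction in any gene, so these genes are not an excess. The model on recovered reads with limma's voom weights also called 0 genes, with 493 at unadjusted p under 0.05. Of all tested genes, 46.4% had a positive interaction. Without the line 1 library of del/del day 5, however, 1200 genes were called higher (9.02%) and 1147 lower (8.62%). In that fit the del/del day 5 group was the single library of line 3, assumed to vary as the other groups did. Leaving out any other library gave 0 called genes, with 153 to 852 at unadjusted p under 0.05.

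The contrast can be formed inside each ES line, and the 2 lines gave unrelated values. Across the 13377 genes the interaction in line 1 and in line 3 had a Pearson r of -0.007 and a Spearman rho of -0.026. This is a correlation across genes, which are not independent replicates. The sign matched in 6576 genes (49.2%). Among the fifth of genes with the highest level (2676 genes), r was -0.046 and 50.1% shared their sign, so the lack of agreement was not limited to genes with few reads. A difference of at least 2-fold was seen for 1026 genes in line 1 (7.67%) and for 2855 in line 3 (21.3%). Both lines passed 2-fold for 452 genes (3.38%), of which 224 moved the same way (1.67%) and 228 opposite ways (1.7%). The matching 224 were 80 higher in both lines (0.598%) and 144 lower in both (1.08%).

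**Figure D2:**
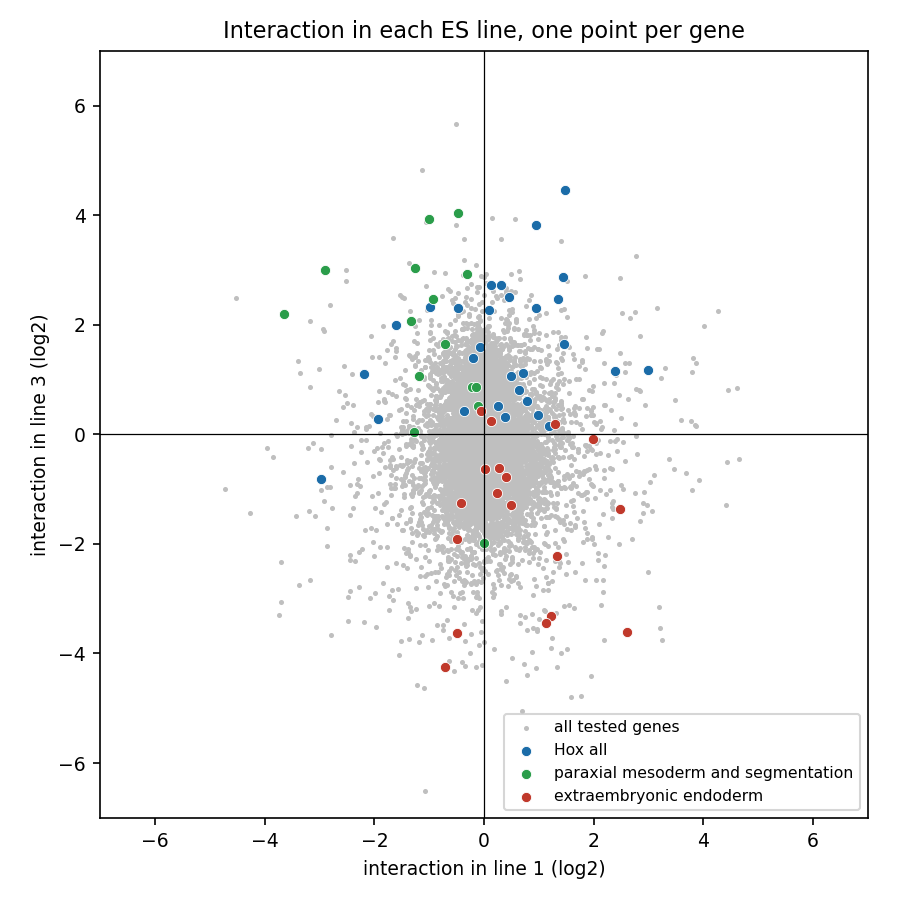
Interaction of each tested gene in line 1 (horizontal, log2) against line 3 (vertical, log2), with Hox, paraxial mesoderm and extraembryonic endoderm genes coloured. Points spread more along line 3 (SD 0.893) than along line 1 (SD 0.591), paraxial mesoderm genes lie mostly at upper left, and most extraembryonic endoderm genes lie below 0 in line 3.

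The lines departed from each other mainly at day 5. The genotype difference had an SD across genes of 0.391 in line 1 and 0.358 in line 3 at day 1, and of 0.444 and 0.836 at day 5. Line 3 differed from line 1 with an SD of 0.748 among del/del cells and 0.507 among fl/fl cells at day 5, compared with 0.379 and 0.406 at day 1. Differences between the lines correlated at r = 0.189 across genes between the 2 genotypes at day 1. At day 5 the same correlation was -0.152, a weak tendency of line 3 to depart from line 1 in opposite directions in the 2 genotypes.

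Wnt targets and feedback genes responded in both genotypes. Of the 21 tested from a list of 25, 16 rose and 4 fell on average, 14 had a positive interaction, and 0 passed the interaction test in either direction. Their median interaction was 0.14 (0.19 in line 1, 0.092 in line 3). Axin2, a scaffold of the destruction complex and a direct Wnt target, went from 2.75 and 2.57 to 6.43 and 6.17 in del/del lines 1 and 3, and from 2.04 and 2.22 to 6.37 and 6.14 in fl/fl. Day 5 levels of Axin2 overlapped between genotypes, and its interaction was -0.48 (SE 0.22; line 1 -0.65, line 3 -0.31). Notum, a secreted enzyme that inactivates Wnt ligands, reached 5.89 and 5.84 in del/del and 5.78 and 5.42 in fl/fl. Sp5 reached 5.32 and 5.30 and 5.45 and 4.93. The Sp5 groups overlapped as well.

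The members Dkk1, Apcdd1 and Tnfrsf19 of this list came closest to a difference without passing the test. Dkk1 was 1.35 and 2.18 in del/del and 2.21 and 2.75 in fl/fl at day 5, with an interaction of -1.79 (SE 0.83; line 1 -1.16, line 3 -2.42) that rests on 3 and 9 reads at day 1 in del/del and 2 and 2 in fl/fl. Apcdd1, a membrane-bound Wnt inhibitor, was 4.80 and 4.76 and 4.50 and 3.92, with an interaction of 1.44 (SE 0.64; line 1 1.99, line 3 0.88). At day 1 its fl/fl line 1 library stood at 1.91 and the other 3 between 0.23 and 0.27. Tnfrsf19, a receptor of the tumour necrosis factor family, was 5.60 and 6.22 in del/del and 5.70 and 4.97 in fl/fl, and line 3 gave most of its interaction of 0.81 (SE 0.37; line 1 0.15, line 3 1.47).

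Among 28 tested Wnt ligands and receptors, 2 were higher and 2 lower at unadjusted p under 0.05, beside 1.07% and 2.08% of all genes. The median interaction was -0.17, with 0.050 in line 1 and -0.33 in line 3. Wnt4 and Wnt11, both linked to noncanonical signalling, were the higher pair, with interactions of 1.74 (SE 0.56; line 1 2.41, line 3 1.08) and 2.26 (SE 0.80; line 1 3.30, line 3 1.21). Fewer reads in del/del at day 1 entered both values: Wnt11 had 3 and 9 reads in del/del and 15 and 11 in fl/fl, and Wnt4 had 7 and 9 and 26 and 28. At day 5 the levels of Wnt4 were 1.54 and 1.21 in del/del and 1.31 and 2.09 in fl/fl. Wnt6 and Wnt7b, which act as epithelial ligands, were the lower pair, at -1.05 (SE 0.38; line 1 -0.84, line 3 -1.26) and -1.20 (SE 0.52; line 1 -0.85, line 3 -1.54). Day 5 groups did not overlap for Wnt7b, at 3.91 and 2.87 in del/del and 4.10 and 4.55 in fl/fl, or for Wnt11, at 0.92 and 1.21 and 0.23 and 0.61. Such separation at day 5 is common here: it held for 1845 of all 13377 genes with del/del higher (13.8%) and for 2758 with del/del lower (20.6%).

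NMP and primitive streak genes showed the induction that defines this phase. Of 20 tested from a list of 24, 16 rose and 2 fell on average, 8 had a positive interaction, and 0 were called in it. T was 4.61 and 5.0 in del/del and 4.99 and 4.34 in fl/fl at day 5, from 5 and 8 reads and 4 and 2 reads at day 1. Its interaction was -0.72 (SE 0.64; line 1 -0.41, line 3 -1.02). In line 3 the day 5 level of T was higher in del/del, so the negative value there rests on day 1 reads of 8 and 2. Cdx2, a regulator of posterior identity and of Hox genes, reached 4.52 and 5.08 and 4.63 and 4.34, with an interaction of -0.26 (SE 0.40; line 1 -1.0, line 3 0.49). The del/del library of line 3 was the highest and the fl/fl library of line 3 the lowest at day 5 for both genes. The 10 NMP and streak markers, of which 9 were tested, summed to 127 and 177 rescaled RPM in del/del lines 1 and 3, and to 151 and 107 in fl/fl. All 4 day 1 libraries lay between 8.97 and 11.8. The sums thus had the order of T: line 3 held both the highest and the lowest day 5 value.

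Hox genes had the largest shift of any list with at least 20 genes tested. Of 39 genes 29 were tested, 28 rose on average, and 26 had a positive interaction, where 46.4% of all genes did. Their median interaction was 0.79, with 0.46 in line 1 and 1.40 in line 3, and 21 of 29 kept their sign in both lines. None passed the test, and 3 were higher at unadjusted p under 0.05, as were 1.07% of all genes. The middle genes of the clusters (paralogs 6 to 9) had a median of 1.48 with 11 of 11 positive, the 3-prime genes (paralogs 1 to 5) 0.77 with 10 of 12, and the 5-prime genes (paralogs 10 to 13) 0.63 with 5 of 6. By cluster the medians were 0.54 for Hoxa, 1.24 for Hoxb, 0.76 for Hoxc and 0.82 for Hoxd.

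Day 5 levels show which library carried the shift. Hoxb8 was 3.20 and 4.18 in del/del lines 1 and 3 and 3.12 and 2.83 in fl/fl. Hoxb3 was 1.52 and 3.99 and 1.47 and 0.85, and Hoxa9 was 1.43 and 4.01 and 1.42 and 1.45. In each the del/del library of line 3 stood above the other 3, and del/del line 1 lay near the fl/fl libraries. Hoxb7 followed the same order at 3.51 and 4.76 and 3.33 and 3.06, as did Hoxb9 at 3.02 and 3.85 and 2.79 and 2.59. Hoxb2, Hoxd3 and Hoxd13 had negative interactions, at -1.90, -0.55 and -0.83. Hoxb2 was 1.67 and 3.43 in del/del and 1.77 and 1.42 in fl/fl at day 5, again highest in del/del line 3. Its negative value (SE 0.87; line 1 -2.97, line 3 -0.82) rests on day 1 reads of 8 and 8 in del/del and 0 and 0 in fl/fl. Over the list, the median genotype difference at day 5 was 0.021 in line 1 and 1.80 in line 3. Without the line 3 library of del/del day 5 the median interaction was 0.040, with 18 of 29 positive. Without its line 1 counterpart it was 1.77, and 4 of 29 Hox genes were called higher, where 9.02% of all genes were.

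In line 1 the Hox interactions reflect day 1 values, where these genes had almost no reads. The median genotype difference of that line was -0.44 at day 1, beside the 0.021 at day 5. Absent reads alone give a negative day 1 difference after rescaling. Hoxc4, with 0 reads in every day 1 library, had -0.29 in line 1 and -0.32 in line 3. Of the 29 genes, 12 had at most 3 reads in every day 1 library. Hoxb8 had 2 and 0 reads at day 1 in del/del and 3 and 4 in fl/fl, and Hoxb9 had 3 and 8 and 11 and 6. Fitted values of such genes depend on how absent reads are entered. With every count below 3 reads set to 3, the list median was 1.11 with 27 of 29 positive. The same library shifts were applied after this floor, so it keeps the difference between absent reads. It cannot show how much of the list median comes from them. On the deposited scale it was 0.27, where the median of all genes was -0.55.

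**Figure D3:**
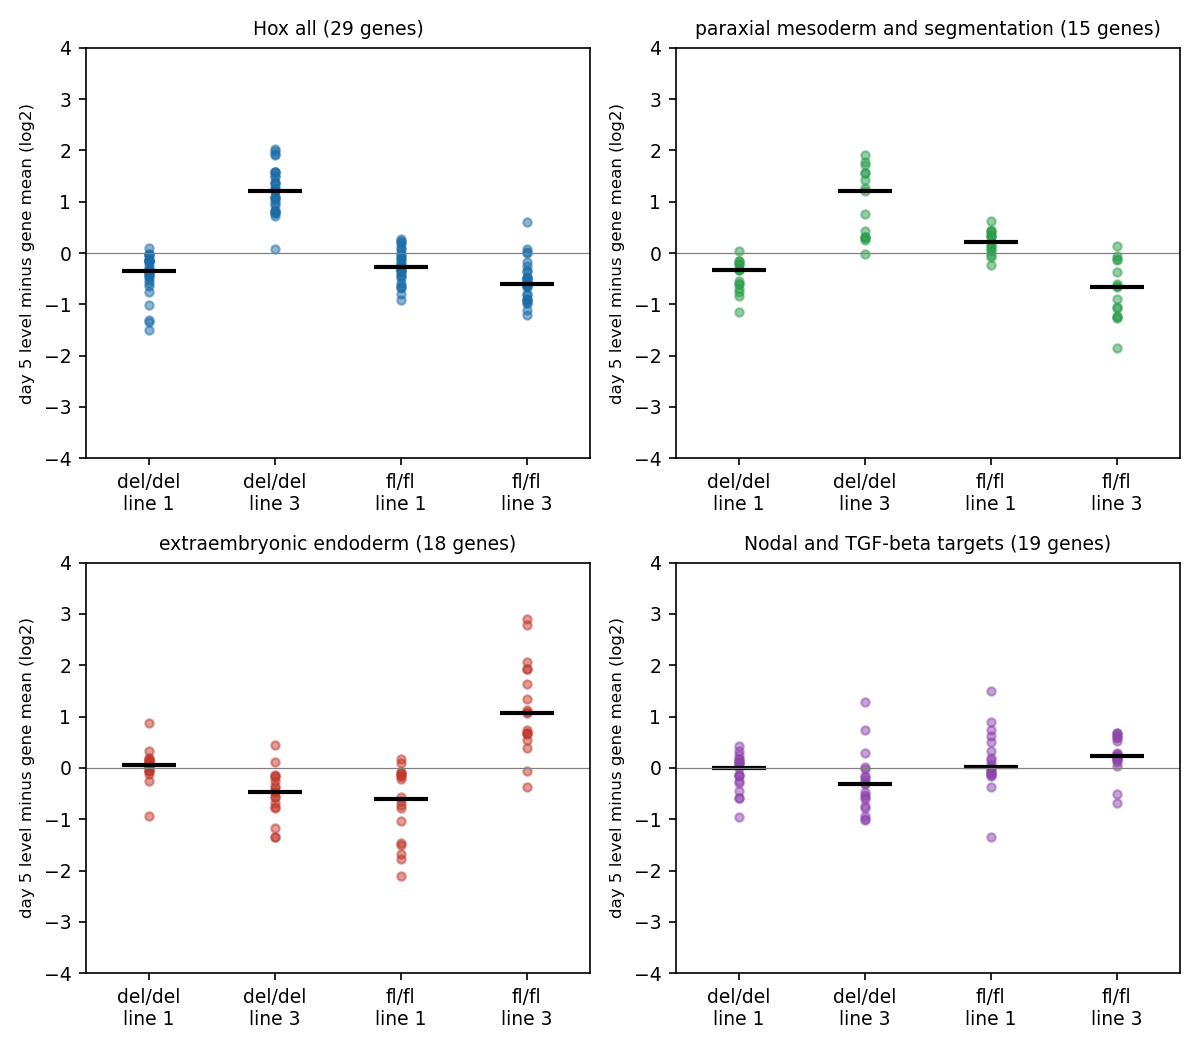
Day 5 level of each gene minus its mean over the 4 day 5 libraries (log2), for Hox (29), paraxial mesoderm (15), extraembryonic endoderm (18) and Nodal pathway (19) genes; dots are genes and bars list medians. The del/del library of line 3 stands highest for Hox and paraxial mesoderm genes, and the fl/fl library of line 3 stands highest for extraembryonic endoderm genes.

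Paraxial mesoderm and segmentation genes moved in opposite directions in the 2 lines. Their median interaction was -0.94 in line 1 and 2.07 in line 3 over 15 genes tested from 22, and 1 of 15 kept its sign in both lines, where 49.2% of all genes did. The fit over both lines gave 0.35, and 0 genes were called. Tbx6, a T-box factor that commits NMPs to paraxial mesoderm, was 1.22 and 4.15 in del/del lines 1 and 3 and 3.0 and 1.13 in fl/fl at day 5. Its interaction was -3.64 in line 1 and 2.19 in line 3. Msgn1, a target of Tbx6 and of Wnt signalling whose promoter is printed above, was 1.63 and 3.67 in del/del and 2.38 and 0.090 in fl/fl. Both genes were high in del/del line 3 and fl/fl line 1 and low in the other 2 libraries, so genotype groups overlapped.

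The same order held for Foxc1, a forkhead factor of somitic mesoderm, at 0.20 and 2.59 in del/del and 1.34 and -0.026 in fl/fl. Hes7, the segmentation clock repressor, was 1.05 and 3.32 and 1.79 and 0.87. The Notch ligand Dll1 was 3.15 and 4.95 and 4.05 and 2.63, Dll3 was 2.69 and 4.72 and 3.69 and 2.06, and Nrarp, a Notch feedback gene, was 1.47 and 4.14 and 2.34 and 0.95. For all 5 genes the del/del library of line 3 was the highest and fl/fl line 1 the second. Hes7, Dll1 and Dll3, as well as Gata4, Lama1, Rhox5, Sparc, Col1a1, Thy1 and Dcn below, were picked for naming after their values had been seen. Nrarp shares 79.4% of its exon bases with another annotated gene, so its reads are uncertain. Without the line 3 library of del/del day 5 the list median turned to -0.26, with 3 of 15 positive, and on the deposited scale it was -0.16.

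Most extraembryonic endoderm genes were highest in the fl/fl library of line 3 at day 5. Over 18 genes tested from 24 the median interaction was -0.41, with 0.34 in line 1 and -1.28 in line 3, and 0 were called. Gata4, a regulator of primitive endoderm, was 1.92 and 0.71 in del/del and 1.10 and 3.82 in fl/fl. Dab2, an endocytic adaptor of visceral endoderm, was -0.33 and 0.14 and -0.90 and 3.51. Lama1, a laminin chain of the basement membrane, was 4.61 and 4.52 and 3.41 and 6.92. Gata6 was 1.14 and 0.80 and 0.55 and 2.28. In these 4 genes the fl/fl library of line 3 exceeded the other 3 libraries, and fl/fl line 1 was among the lower ones. Lamc1 and Col4a2, basement membrane genes that many cell types express, were also highest there, at 7.15 and 7.61. Rhox5 and Sparc of the same list were not. Rhox5 was 5.25 and 5.27 in del/del and 5.33 and 4.78 in fl/fl, and Sparc was 6.68 and 6.39 and 6.63 and 6.48.

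The 7 defining extraembryonic endoderm markers summed to 16.5 and 9.06 rescaled RPM in del/del lines 1 and 3 at day 5, and to 9.01 and 48.8 in fl/fl, from 1.39 to 2.22 at day 1. Of the 7, Afp and Ttr had fewer than 10 reads in every library. The library that stood highest was also the one with the larger share of reads in genes. Whether this marker content plays a part in the interactions was not tested. Without that library the list median was 0.14, with 11 of 15 positive.

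Foxa2, which is expressed in node, definitive endoderm and visceral endoderm, was 0.50 and -0.79 in del/del and 0.34 and 2.19 in fl/fl and also peaked in fl/fl line 3. Its interaction was -0.71 in line 1 and -4.24 in line 3. Definitive endoderm genes had a median of -0.63 over 7 genes (-0.29 in line 1, -0.97 in line 3), and Cer1 had 0 reads in all libraries. Foxa3 had similar values in both lines, at -1.51 (SE 0.62; line 1 -1.55, line 3 -1.46). It rests on 9 and 7 reads in del/del and 16 and 33 in fl/fl at day 5. The chemokine receptor Cxcr4 went the other way, at 2.15 (SE 0.80; line 1 1.51, line 3 2.79), with day 1 reads of 3 and 7 in del/del and 10 and 12 in fl/fl. Endothelial and blood genes had a median of -0.65, from -0.027 in line 1 and -1.45 in line 3, with 2 of 11 positive.

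Nodal pathway genes had a negative median interaction in both lines, and none passed the test. Over 19 tested from 22, the median interaction was -0.40, with -0.13 in line 1 and -0.56 in line 3, and 4 of 19 were positive. Lower values at unadjusted p under 0.05 came from 3 of the 19 genes, beside 2.08% of all genes. Nodal is a TGF-beta family ligand that sustains the primed state and patterns the streak, Tdgf1 (Cripto) is its coreceptor, and Lefty1 is its secreted antagonist and target. Nodal was 4.86 and 4.56 in del/del and 4.57 and 4.39 in fl/fl at day 1, and 0.78 and 1.07 and 1.75 and 1.36 at day 5. Tdgf1 was 5.37 and 5.43 and 5.39 and 5.32 at day 1, and 0.99 and 0.14 and 2.05 and 1.40 at day 5. Lefty1 (chr1:180935022-180938400) was 3.56 and 3.96 and 3.54 and 3.58 at day 1, and -1.50 and -1.66 and -0.19 and -0.34 at day 5. For all 3 genes both del/del libraries lay below both fl/fl libraries at day 5, as they did for 20.6% of all genes. All 3 also fell at least 4-fold on average. The 610 genes that did so had a median interaction of -0.37, and 34.1% of them were positive.

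The interactions were -0.86 (SE 0.30; line 1 -1.26, line 3 -0.45) for Nodal, -1.21 (SE 0.42; line 1 -1.04, line 3 -1.37) for Tdgf1 and -1.52 (SE 0.38; line 1 -1.33, line 3 -1.70) for Lefty1, with unadjusted p of 0.0205, 0.0182 and 0.00326. Lefty1 rests on 8 and 6 reads in del/del and 18 and 29 in fl/fl at day 5. Gdf3, a Nodal-related ligand, was 1.20 and 0.00045 in del/del and 1.64 and 1.25 in fl/fl at day 5. Leaving out 1 library at a time put the list median between -0.66 and -0.16. The low end came without the line 1 library of del/del day 5 and the high end without the line 3 library of fl/fl day 5.

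Negative values were also seen for Otx2 and Foxd3, regulators of the primed state. Otx2 was -2.50 and -4.40 in del/del and -0.90 and -1.39 in fl/fl at day 5, from 3.82 and 3.84 and 4.03 and 3.76 at day 1. Its interaction of -2.24 (SE 0.78; line 1 -1.39, line 3 -3.09) rests on 4 and 0 reads in del/del and 11 and 14 in fl/fl at day 5. Foxd3 had 11 and 0 reads in del/del and 15 and 14 in fl/fl at day 5. The 14 primed genes tested had a median of 0.065 (0.11 in line 1, -0.22 in line 3). The 22 naive genes, of which 16 fell on average, had -0.19 (-0.063 in line 1, -0.50 in line 3). The 7 ES markers summed to 102 and 69.9 rescaled RPM in del/del at day 5, and to 105 and 103 in fl/fl, from 166 to 213 at day 1.

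Fibroblast and mesenchyme genes had a positive median interaction in both lines, and none passed the test. The list had a median of 0.51 over 15 tested genes (0.56 in line 1, 0.33 in line 3), 12 of 15 were positive, and 4 were higher at unadjusted p under 0.05 (1.07% of all genes). Acta2, smooth muscle actin (chr19:34241090-34255336), was 4.10 and 4.01 in del/del and 2.73 and 2.69 in fl/fl at day 5, from 2 and 5 and 4 and 7 reads at day 1. Its interaction was 2.39 (SE 0.65; line 1 2.66, line 3 2.12). Tagln, an actin-binding protein of smooth muscle (chr9:45929628-45936058), was 2.49 and 2.66 in del/del and 3.21 and 3.52 in fl/fl at day 1, and 5.54 and 5.49 and 5.35 and 5.01 at day 5. Both groups separated at each day, with del/del lower at day 1 and higher at day 5, as in 2.21% of all genes. The interaction of Tagln was 1.12 (SE 0.24; line 1 0.90, line 3 1.34). Tagln shares 67.9% of its exon bases with the annotated genes Pcsk7 and Gm48529, so its reads are uncertain.

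The fibrillar collagen Col3a1 was 3.10 and 3.42 in del/del and 1.62 and 1.62 in fl/fl at day 5, and -1.65 and -1.97 and 0.88 and -1.80 at day 1. The fl/fl line 1 library stood above the other 3 at day 1, and the interaction was 3.0 (SE 1.01; line 1 4.02, line 3 1.98). Col1a1 had the same day 1 library above the rest, with 53 and 6 reads in fl/fl and 19 and 12 in del/del, and its day 5 levels were 1.69 and 3.15 in del/del and 0.28 and 0.16 in fl/fl. Col5a1 had an interaction of 0.84 (SE 0.30; line 1 1.05, line 3 0.63), from a difference at day 1, while its day 5 levels were close together at 3.55 and 3.63 and 3.53 and 3.54. Fibronectin (Fn1) was 8.13 and 8.08 in del/del and 7.93 and 7.83 in fl/fl, and its interaction of 0.32 changed sign on the deposited scale. The 6 fibroblast markers summed to 22.8 and 40.0 rescaled RPM in del/del at day 5, and to 11.7 and 10.6 in fl/fl. At day 1 the range was 2.91 to 6.67, and Postn had fewer than 10 reads in every library. Not every marker had the order of the sums. At day 5 Thy1 was 0.40 and 2.18 in del/del and 1.10 and -0.95 in fl/fl. Dcn was -2.50 and -0.34 and -2.36 and -0.74, so both genes overlapped between genotypes. The part of such cells in these values was not tested.

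Beyond the lists, 12 genes in each direction were named for the smallest unadjusted p among genes with matching signs in both lines. Agreement between lines was part of this choice, and none passed after adjustment. The higher genes were Tagln, Rbm44, Pygo1, Tspan7, Lsp1, Acta2, Agrn, Vash1, Shisa4, Malat1, Cdh11 and Id3, with interactions from 0.74 to 3.25 and unadjusted p from 0.00117 to 0.0116. Tspan7, a tetraspanin (chrX:10485158-10596605), was 0.87 and 1.10 in del/del and 1.22 and 1.45 in fl/fl at day 1, and 2.81 and 3.02 and 1.73 and 2.01 at day 5. Its groups did not overlap at either day and changed places between them, as in 295 genes in all (2.21%). Rbm44, an RNA-binding protein of germ cells, kept 12 and 12 reads in del/del and 2 and 5 in fl/fl at day 5, after 310 and 364 and 210 and 233 at day 1. Its interaction was 2.02 (SE 0.48; line 1 2.16, line 3 1.88).

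Pygo1, a nuclear cofactor of beta-catenin, was -2.91 and -2.43 in del/del and -0.78 and -1.21 in fl/fl at day 1, and 1.17 and 1.59 and 0.55 and 0.59 at day 5, for an interaction of 2.49 (SE 0.61; line 1 2.75, line 3 2.22). Id3, an inhibitor of helix-loop-helix factors and a target of BMP signalling, was 4.32 and 4.69 in del/del and 3.82 and 3.50 in fl/fl at day 5. At day 1 the Id3 groups overlapped at 4.41 and 4.17 and 4.27 and 4.21. Agrn, the heparan sulphate proteoglycan agrin, had an interaction of 0.74 (SE 0.20; line 1 1.04, line 3 0.44) on 1139 to 2476 reads per library. The nuclear RNA Malat1 was 5.12 and 4.87 and 3.52 and 4.72 at day 5, and the fl/fl libraries lay further apart than the del/del libraries. Cdh11, a mesenchymal cadherin, had 5 and 6 reads at day 1 in del/del and 39 and 8 in fl/fl, and its interaction of 3.25 (SE 1.0; line 1 4.26, line 3 2.24) was larger in line 1, whose fl/fl library had the most reads at day 1.

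**Figure D4:**
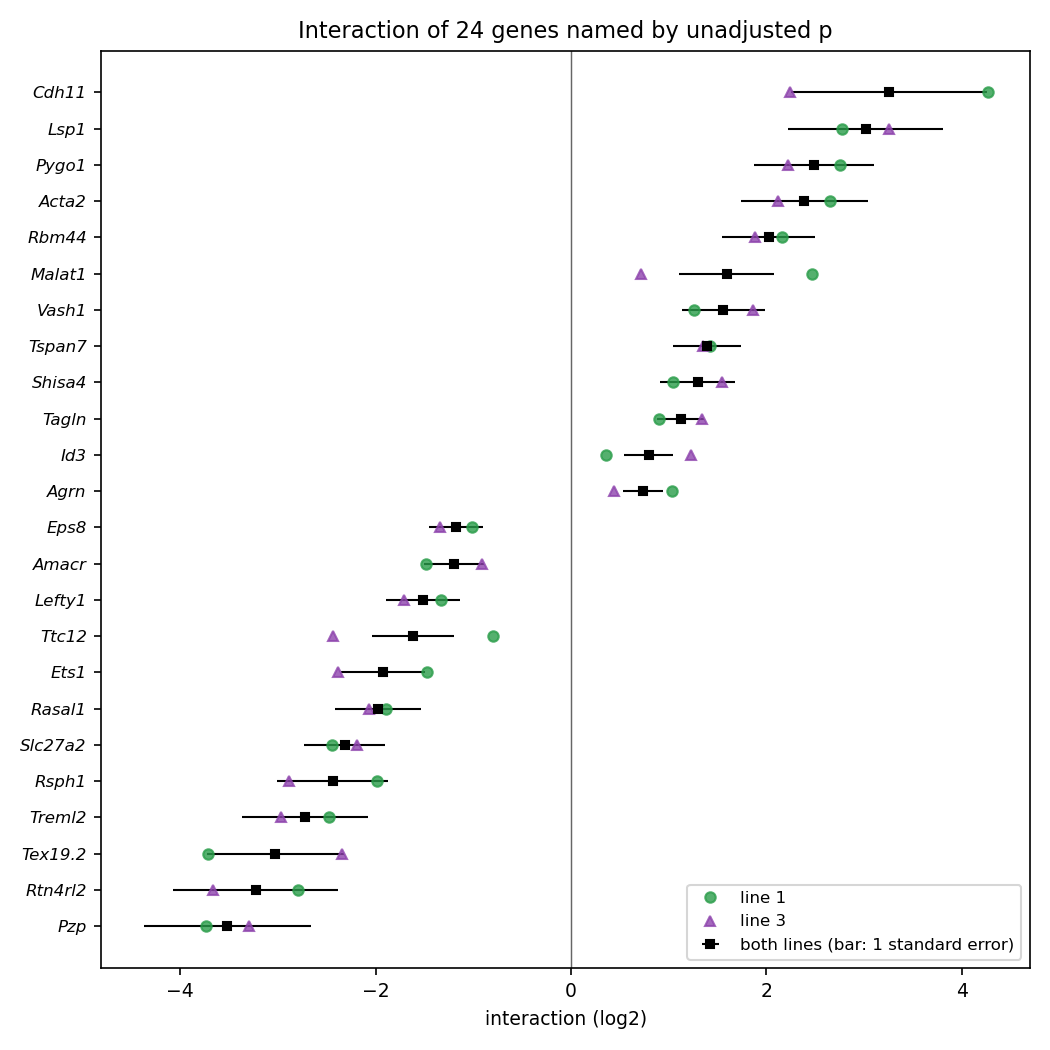
Interaction (horizontal, log2) of the 12 genes with the smallest unadjusted p in each direction, as the fit over both lines (square, bar 1 SE) and the value in line 1 and line 3. Both lines lie on the same side of 0 for all 24 genes, as the naming rule requires.

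The lower genes were Slc27a2, Ets1, Rasal1, Tex19.2, Rsph1, Eps8, Treml2, Pzp, Lefty1, Amacr, Ttc12 and Rtn4rl2, with interactions from -3.52 to -1.18 and unadjusted p from 0.000387 to 0.00442. Slc27a2, a fatty acid transporter and very long chain acyl-CoA synthetase (chr2:126552407-126588243), was 4.39 and 4.88 in del/del and 4.68 and 4.91 in fl/fl at day 1. By day 5 the del/del cells had 2 and 2 reads left and the fl/fl cells 12 and 18, and its interaction was -2.32 (SE 0.42; line 1 -2.44, line 3 -2.19). Ets1, a transcription factor, was -0.15 and -0.15 in del/del and -1.25 and -1.21 in fl/fl at day 1, and 3.0 and 2.41 and 3.38 and 3.73 at day 5. Eps8, an actin-capping signalling adaptor, was 3.62 and 3.67 and 3.12 and 3.46 at day 1, and 2.96 and 2.74 and 3.47 and 3.86 at day 5. Ets1 and Eps8 were higher in del/del at day 1 and lower at day 5, with no overlap between genotypes at either day, a pattern of 431 genes in all (3.22%).

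Amacr, a racemase of branched-chain fatty acid and bile acid metabolism, was 1.30 and 1.40 in del/del and 2.52 and 2.15 in fl/fl at day 5, and Rasal1, a Ras GTPase-activating protein, was 0.35 and 0.21 and 1.20 and 1.52. Several others rest on very few day 5 reads. Tex19.2, a germline gene, had 0 and 0 reads in del/del and 6 and 9 in fl/fl, Rtn4rl2 had 0 and 0 and 4 and 10, and Pzp had 1 and 1 and 6 and 7. Their fitted interactions, -3.02, -3.23 and -3.52, depend on how absent reads are entered and bound nothing. With every count below 3 reads set to 3 they were -1.29, -1.49 and -1.93.

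Tex19.2 is on the germline and meiosis list. Of 24 germline and meiosis genes tested from 28, 20 fell on average, 6 had a positive interaction, and the median was -0.62 (-0.13 in line 1, -1.07 in line 3). At unadjusted p under 0.05, 3 were lower and 1, Rbm44, was higher, beside 2.08% and 1.07% of all genes. Slc25a31, a mitochondrial carrier of germ cells, was 2.30 and 1.53 in del/del and 1.24 and 1.39 in fl/fl at day 1, and 0.25 and 0.21 and 1.13 and 1.14 at day 5, for an interaction of -1.51 (SE 0.45; line 1 -1.94, line 3 -1.07). Stra8, which licenses meiosis, had -1.26 (SE 0.46; line 1 -0.86, line 3 -1.65). For both genes the day 5 groups did not overlap, with del/del lower, as for 20.6% of all genes. Leaving out 1 library at a time put the list median between -1.06 and -0.099, so the size of the shift depended on single libraries. Over all tested genes, those that fell had a median of -0.07, and those that fell at least 4-fold -0.37.

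Genes whose 2 lines disagreed most, by the gap between line 1 and line 3 among those of opposite sign, were Abcg1, Arhgef6, Mt4, Cxcl14, Sox7 and Igfbp6. Sox7, a factor of primitive endoderm and endothelium, was 0.63 and -0.93 in del/del and -2.36 and 1.67 in fl/fl at day 5, for an interaction of 2.62 in line 1 and -3.61 in line 3. Abcg1, a cholesterol exporter, had 18 and 0 reads in del/del and 2 and 19 in fl/fl at day 5. Arhgef6, a Rac exchange factor, had 1 and 14 reads at day 1 in del/del and 2 and 2 in fl/fl, so its values of 1.59 and -4.79 depend on single libraries. In all 6 the interaction was positive in line 1 and negative in line 3.

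Genes were also grouped by their own average response. Genes that rose had median interactions of opposite sign in the 2 lines, while genes that fell had negative medians in both. Over all tested genes the median was -0.035, with 0.0046 in line 1 and -0.11 in line 3. Genes that rose had a median interaction of -0.09, with 0.05 in line 1 and -0.26 in line 3, and 40.7% were positive. Genes that fell had -0.07, with -0.03 and -0.13, and 42.7% were positive. The 960 genes that rose at least 4-fold had -0.13, from 0.16 in line 1 and -0.43 in line 3. Those that fell at least 4-fold, 610 genes, had -0.37, from -0.10 and -0.65, where the del/del response had a median of -3.22 and the fl/fl response -2.81. The fall in this last group was thus larger in del/del by the median of either line, and the difference was larger in line 3.

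Imprinted genes and clustered protocadherins include known targets of Smchd1, and none of their tested members passed. The Snrpn cluster had a median interaction of 0.39 over 8 genes (0.25 in line 1, 0.62 in line 3), 6 of them positive. Its member Peg12 was 1.52 and 3.09 in del/del and 1.26 and 0.83 in fl/fl at day 5, highest in del/del line 3. Of 4 genes tested in the Dlk1-Dio3 cluster, the maternally expressed RNA Meg3 was 4.56 and 5.06 in del/del and 3.72 and 4.20 in fl/fl at day 5. Its groups did not overlap, with del/del higher, as for 13.8% of all genes. The Meg3 interaction was 0.96 (SE 0.33; line 1 1.30, line 3 0.62). Dlk1 was positive too, at 1.22 (SE 1.04; line 1 0.18, line 3 2.26). Dio3 went the other way at -1.35 (SE 0.65; line 1 -0.35, line 3 -2.35), and Rtl1 was -0.17 (SE 0.49). In the H19 and Kcnq1 region (12 genes, median 0.011, with -0.11 in line 1 and 0.065 in line 3), H19 was 7.56 and 8.02 and 7.66 and 6.92, with its groups overlapping. Igf2 was 6.46 and 6.96 and 6.41 and 6.16, an interaction of 0.66 (SE 0.28; line 1 0.22, line 3 1.10), and shares 64.5% of its exon bases with other annotated genes. Tspan32, in the same region, had 0 and 1 reads in del/del and 6 and 6 in fl/fl at day 5. Of 58 clustered protocadherins 2 had enough reads to be tested.

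Of the remaining lists, cell cycle genes were positive in 33 of 37 with a median of 0.21, made of 0.031 in line 1 and 0.36 in line 3. Cenpa, the centromeric histone H3 variant, led them at 0.91 (SE 0.32; line 1 0.41, line 3 1.40). Cholesterol genes were negative in 19 of 23, with a median of -0.20, from -0.015 in line 1 and -0.34 in line 3. Epithelial adhesion genes were negative in 13 of 16, with a median of -0.14, but the lines differed in sign, with 0.034 in line 1 and -0.38 in line 3. FGF and ERK feedback genes had a median of 0.17 with 16 of 21 positive, from 0.19 in line 1 and 0.27 in line 3. Members of further lists among the 4 smallest unadjusted p of their list included Hmga2, a chromatin protein of growth control, at 1.02 (SE 0.35; line 1 0.67, line 3 1.36), the glutathione-degrading enzyme Chac1 at -0.87 (SE 0.25; line 1 -1.09, line 3 -0.64), the chaperone Hspa4l at -1.26 (SE 0.46; line 1 -1.05, line 3 -1.46) and N-cadherin (Cdh2) at 0.64 (SE 0.31; line 1 0.52, line 3 0.76). None was close to passing, with an adjusted p of 0.825 for each (limma). The ligand Bmp2 had -1.85 (SE 0.76; line 1 -0.80, line 3 -2.90), which rests on 5 and 5 reads at day 1 in del/del and 2 and 1 in fl/fl, while its day 5 levels overlapped at 3.24 and 2.29 and 3.01 and 3.19.

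**Figure D5:**
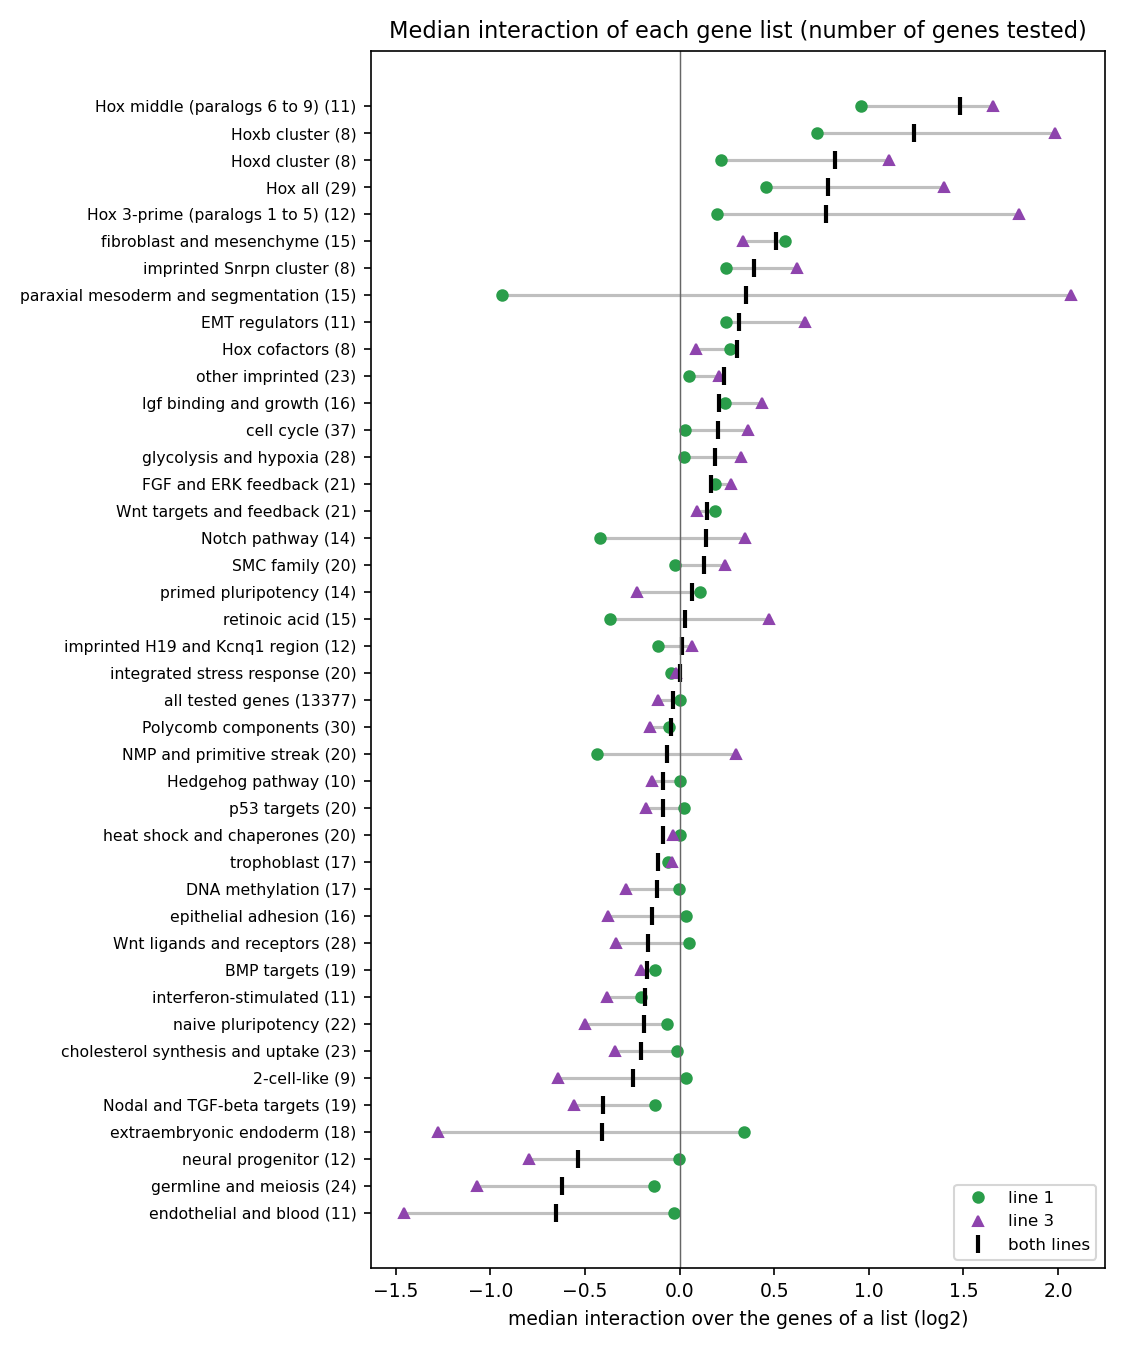
Median interaction (horizontal, log2) of each gene list with at least 8 genes tested, over both lines (bar), in line 1 (circle) and in line 3 (triangle), with the number of genes in brackets. The paraxial mesoderm list has the widest gap between lines, and for most lists line 3 lies further from 0 than line 1.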

How the data were processed

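RNA-seq was made from 12 libraries of Smchd1 del/del and fl/fl cells, of which the 8 from day 1 and day 5 entered the contrast. The authors deposited 1 table of log2 values per gene, in mm10 coordinates, whose own name calls them log CPM. TopHat2 2.0.12, bcl2fastq and edgeR are named in the submitters' processing notes, with no roles given, and the counting settings are not given in the sources used here. Taken out of log2, 100% of the values were whole multiples of a step per library (tolerance 0.02), with 0 reads entered as 0.9, so whole reads were recovered. Their denominators exceed the reads in genes.

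Each library was shifted by the median of its log2 differences from the mean library. Genes above a deposited log2 value of 0 in at least 2 of the 8 libraries were tested with limma 3.58.1 in R 4.3.3 (4 group means, mean-variance trend, Benjamini-Hochberg adjustment, 4 residual and 4.70 prior degrees of freedom). With 2 lines per genotype and day, p-values measure the spread between these 2 ES lines. The scripts were tested on simulated data. Replicate numbers pair libraries, since the labels name the same ES line (1 or 3) in both genotypes; the line differences correlated at 0.189 between genotypes at day 1 and at -0.152 at day 5. Adding the line as a block left 0 calls.

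Lists and the contrast were chosen with earlier results of these data known. Named were Smchd1, up to 12 genes per direction by interaction p (same sign in both lines, at least 10 reads in each library of 1 group, no predicted genes), up to 4 genes per list by p with any Hox, Wnt target or NMP gene, 6 genes with opposite lines, and 5 per direction by average response. Promoter windows matched 9196 tested genes by symbol. Exon overlaps came from the GENCODE annotation of GRCm38.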

Additional observations from a re-analysis of the deposited data

Results flagged for a closer look

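For 6 genes and 2 lists the interaction was positive in 1 ES line and negative in the other. With 1 value per line, the difference between lines was not tested, and the genes had been ranked by this gap. In line 3 the interaction was -3.75 for Abcg1 (line 1 3.24), -4.79 for Arhgef6 (line 1 1.59) and -4.41 for the metallothionein Mt4 (line 1 1.96). It was -3.16 for the chemokine Cxcl14 (line 1 3.19), -3.61 for Sox7 (line 1 2.62) and -3.76 for the Igf-binding protein Igfbp6 (line 1 2.20). At day 5 Mt4 had 6 and 1 reads in del/del and 0 and 17 in fl/fl. Cxcl14 had 21 and 1 reads in fl/fl at day 1 and 9 and 40 at day 5. Igfbp6 had 3 and 11 reads at day 1 in del/del and 12 and 2 in fl/fl.

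The paraxial mesoderm and segmentation list had a median of 2.07 in line 3 and -0.94 in line 1. The extraembryonic endoderm list had -1.28 in line 3 and 0.34 in line 1.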

How the results depend on the processing

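The count of 0 called genes stayed at 0 with all 12 libraries, the line as replicate block (367 genes at unadjusted p under 0.05), 2 reads added, no filter, a filter in 4 libraries, voom, array weights and, chosen after seeing the data, a floor of 3 reads. On the deposited scale it was 1, the predicted gene Gm364 (-3.89, adjusted p 0.0105), named after its value was seen. Leaving out 1 library gave 0 to 2347. The top of this range came without the line 1 library of del/del day 5, which left the del/del day 5 group with the line 3 library only. The replicate block changed no call. TMM scaling and the edgeR quasi-likelihood test were not run.

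On the deposited scale, where fl/fl line 3 at day 5 was not brought to the level of the others, genes that rose had a median of -0.65, genes that fell -0.52 and Nodal pathway genes -0.92. The share of genes with 1 sign in both lines was 56.1% there and 50.6% with no filter. Signs turned there for Cxcl14 (-0.49), Fn1 (-0.20) and Notum (-0.11), with no filter for Cxcl14 (-0.048) and with the floor of 3 reads for Abcg1 (0.32).

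The day 5 difference of Smchd1 was no longer called with no filter (-2.18, adjusted p 0.061), voom (-2.14) or array weights (-2.09, adjusted p 0.128). Leaving out 1 library, it ran from -2.35 to -1.85, the day 1 difference from -2.97 to -2.71, and the Smchd1 interaction from 0.50 to 0.99 (called without del/del day 5 line 1). Other ranges were -0.16 to -0.029 for genes that fell, -0.16 to 0.029 for genes that rose, 0.040 to 1.77 for the Hox median, -2.30 to 1.77 for Abcg1, -3.39 to 0.21 for Arhgef6, -2.94 to 0.47 for Mt4, -2.25 to 2.31 for Cxcl14, -2.52 to 0.27 for Sox7, -2.15 to 0.61 for Igfbp6 and -0.55 to 0.023 for Cdx2. The cause of these changes was not tested. Day 5 depth limits genes with under 10 reads, where a difference was often not detectable.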
